A study of Oryza sativa with 12 samples.

Results

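Of the 55985 rice gene models measured in anthers, 64 fell clearly after a cold night in the cold-susceptible cultivar Sant'Andrea (S.AND) and stayed nearly level in the cold-tolerant cultivar Erythroceros Hokkaido (ERY). A gene was taken when its mean in S.AND at the normal temperature was at least 5 RPKM (reads per kilobase of gene model, scaled to the size of the library) and at least 2.5 times its mean in S.AND after the cold. In addition, the ratio of the cold mean to the normal mean had to lie between 0.67 and 1.5 in ERY, with both ERY means at 1 RPKM or more. Of the 16733 genes whose levels could meet the rule, the 64 are 0.382%. The rule was applied to the group means themselves, so the size of the fall in S.AND and the steadiness in ERY are what chose the genes, and they are given as a description with no test.

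RNA-seq was made from post-meiotic anthers of both cultivars, each kept for 1 night either at 24 °C (CONTROL) or at 8 °C (COLD). The 4 groups are thus ERY CONTROL, ERY COLD, S.AND CONTROL and S.AND COLD, with 3 samples in each and 12 in all. Each sample pooled anthers of several plants, and anthers that already looked damaged were left out, so the groups stand for anthers that still looked normal when the lights came on. The deposited table holds 1 value per gene and group, the authors' mean of the 3 samples, and 0 columns of values per sample. No spread between replicates and no depth per sample could therefore be had, every value below is a mean of the authors with no SD, and whether the cold change of a gene differed between the cultivars was not tested. Each cultivar's reads were mapped to 1 reference, so a difference in level between the cultivars cannot be told apart from a difference in how well their reads matched it.

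An anther holds the developing microspores and, around them, wall layers of which the innermost, the tapetum, feeds the microspores and makes the outer pollen wall. Sucrose reaches the microspores through these layers and is cleaved by invertases on the way to starch. Young anther walls are green and carry photosystems in their plastids. Chilling in the period after meiosis is known in rice to harm the tapetum and the pollen, with empty grains as the result.

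Markers of the male organ were high in all 4 groups, and those of neighbouring organs were lower but present. The levels of 5 stamen identity genes, which specify the male organ, summed to 2840 RPKM in CONTROL and 2881 RPKM in COLD in ERY, and to 2521 and 2260 RPKM in S.AND. The 3 pistil or ovule genes summed to 14.9 RPKM in CONTROL and 23.3 RPKM in COLD in ERY, and to 9.43 and 4.30 RPKM in S.AND, so these low levels moved apart between the cultivars. The 4 lemma or palea genes, of the bracts around the flower, summed to 79.9 and 95.6 RPKM in ERY and to 85.5 and 106 RPKM in S.AND. Their part in the results below was not tested. Across the 20868 genes with all 4 means at 1 RPKM or more, the median log2 ratio of COLD to CONTROL (log2FC) was 0.03 in each cultivar.

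In S.AND the 64 genes fell 2.5-fold to 6.01-fold, with a median of 2.87-fold, and most lay close to the limit of the rule. The fall was under 3-fold in 37 genes and 4-fold or more in 8. What was left in S.AND COLD was 16.6% to 40.0% of the CONTROL mean, with a median of 34.8%, whereas in ERY 67.2% to 149.5% was left, with a median of 82.3%. Steady in ERY did not mean without any change, since 48 of the 64 genes had a lower mean in ERY COLD than in ERY CONTROL and 29 had a ratio between 0.67 and 0.8. In a further 27 genes the ERY COLD mean was 80% to 125% of the ERY CONTROL mean, and in 8 it was higher than that. The median log2FC over the 64 genes was -1.52 in S.AND and -0.28 in ERY. Summed over the 64 genes, the level went from 3056.5 to 1007 RPKM in S.AND and from 1307 to 1120 RPKM in ERY. In bulk anthers, fewer cells of a type and less RNA per cell cannot be told apart.

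**Figure D1:**
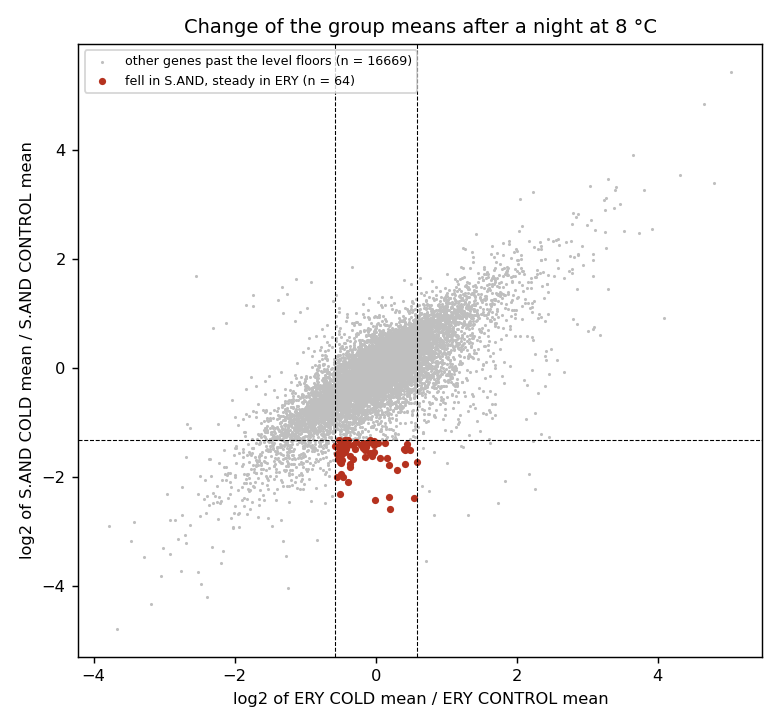
Each point is a gene with S.AND CONTROL of at least 5 RPKM and both ERY means of at least 1 RPKM; the x axis gives the log2 of the ERY COLD mean over the ERY CONTROL mean and the y axis the same for S.AND. The dashed lines are the limits of the rule (0.67 and 1.5 in ERY, a 2.5-fold fall in S.AND), and the 64 red points lie mostly just under the horizontal line and left of 0, at the edge of a cloud that runs along the diagonal.

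The 64 genes are a small share of those that fell in S.AND. Of the 16733 genes, 497 (2.97%) fell at least 2.5-fold in S.AND. In ERY the ratio was below 0.67 in 417 of these 497 (83.9%), between 0.67 and 1.5 in the 64 (12.9%) and above 1.5 in 16 (3.22%). Thus a clear fall in S.AND mostly came with a fall in ERY, which reached 2.5-fold in 224 of the 497 (45.1%). With the cultivars exchanged, the same limits took 23 genes that fell in ERY and stayed level in S.AND (0.139% of 16489). With the direction exchanged, they took 87 genes that rose in ERY alone (0.527% of 16507) and 9 that rose in S.AND alone (0.0551% of 16341). So of genes that met the limits in 1 cultivar only, falls were more often those of S.AND and rises more often those of ERY.

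Counts by level showed where falls in S.AND outnumbered those in ERY. Among genes with a CONTROL mean of 5 to 10 RPKM in the cultivar that fell, 17 (0.517%) met the rule for S.AND and 14 (0.430%) its counterpart for ERY. From 10 to 20 RPKM there were 20 genes (0.491%) for S.AND and 3 (0.0751%) for ERY, and from 20 to 50 RPKM 14 genes (0.263%) and 1 gene (0.0190%). From 50 to 100 RPKM the counts were 4 (0.172%) and 3 (0.134%), and at 100 RPKM and above they were 9 (0.525%) and 2 (0.115%). The shares were thus nearest each other in the lowest range and from 50 to 100 RPKM.

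**Figure D2:**
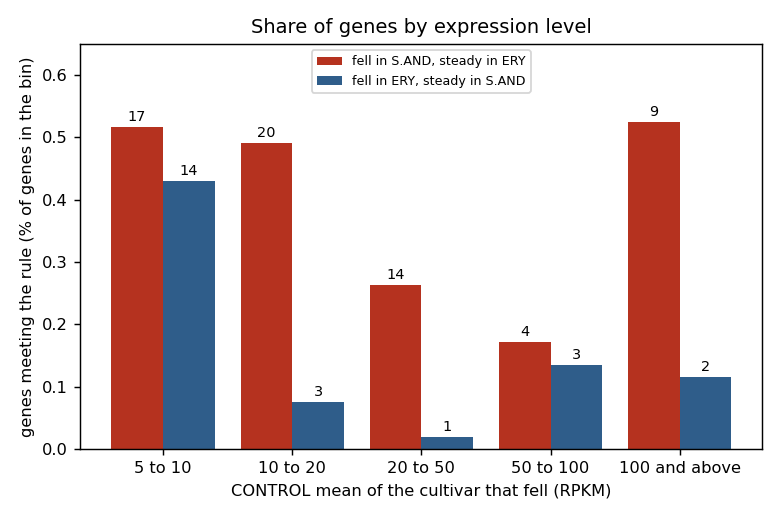
The x axis gives the CONTROL mean of the cultivar that fell, in bins of RPKM, and the bars give the share of genes in the bin, in percent, that fell in S.AND and stayed level in ERY (red) or fell in ERY and stayed level in S.AND (blue), with the number of genes above each bar. The red bar stands at 0.517% against 0.430% for the blue bar in the lowest bin and at 0.525% against 0.115% in the highest.

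A gene can meet the rule from different starting points, and most of these 64 genes already stood higher in S.AND than in ERY before any cold. The S.AND CONTROL mean was at least 1.5 times the ERY CONTROL mean in 43 of the 64 genes (67.2%), against 11.7% of the 16733 genes. The rule takes the S.AND CONTROL mean as the upper term of the fall, so it favours a high start in S.AND. The 16733 genes were not picked in this way, so their share is not a like-for-like measure. The median ratio of S.AND to ERY in CONTROL was 2.63, with a range from 0.219 to 19.0, against 1.03 over the 16733 genes. This median depended on the limits of the rule, and was 1.57 at a 2-fold fall, 1.51 with an ERY window of 0.5 to 2, 1.70 with a floor of 5 RPKM on the ERY means and 1.14 with no floor on S.AND CONTROL. After the cold the median ratio of S.AND to ERY was 0.894, with a range from 0.0478 to 5.93. In CONTROL 5 genes lay at least 1.5-fold below ERY, against 7.64% of the 16733 genes. In COLD, 32 genes lay within 1.5-fold of ERY, 11 lay above it and 21 below it, where the shares over the 16733 genes were 6.87% above and 7.17% below. The most frequent course, in 28 genes (43.8%), was to start above ERY and to end level with it. A further 11 genes started above and ended above, 4 started above and ended below, 12 started level and ended below, 4 were level at both times within these limits, and 5 started below and ended further below.

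A start above the other cultivar was also frequent under the exchanged rule. Of the 23 genes that fell in ERY and stayed level in S.AND, 20 (87.0%) started at least 1.5 times above S.AND, with a median ratio of 2.41, and 13 of them ended level with S.AND. Of the 417 genes that fell in both cultivars, 83 (19.9%) started above ERY in S.AND, with a median ratio of 1.103. The same 4 means sorted these genes and the 64, with a fall required in ERY here and a level mean there. The difference in start between the sets therefore follows in part from the sorting. S.AND CONTROL was the highest of the 4 means in 55 of the 64 genes. In 25 genes S.AND CONTROL stood alone, with the other 3 means within 1.5-fold of each other, and this was so for ERY CONTROL in 9 of the 23 genes of the exchanged rule.

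**Figure D3:**
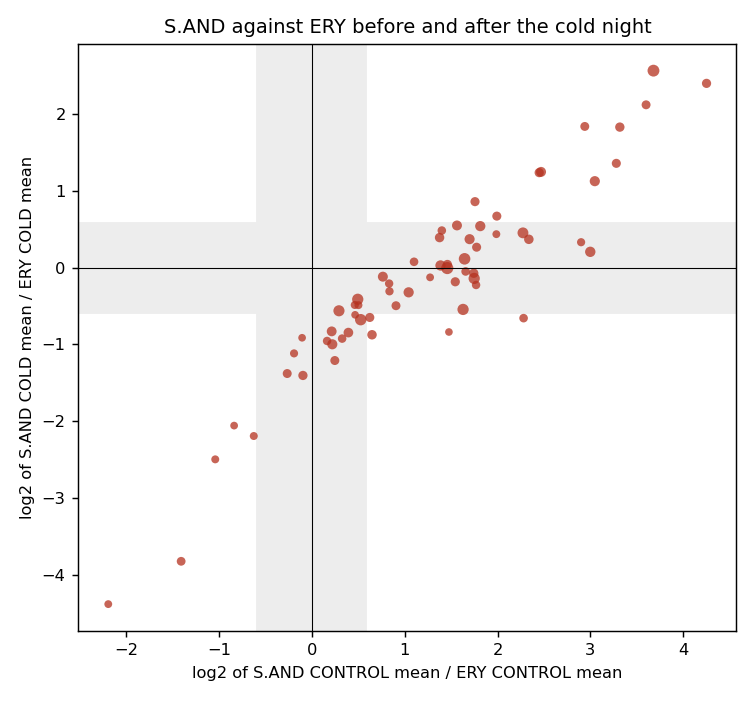
Each of the 64 points is a gene, with the log2 ratio of S.AND to ERY in CONTROL on the x axis, the same ratio in COLD on the y axis and a point size that grows with the S.AND CONTROL mean; the grey bands mark levels within 1.5-fold of each other. Most points lie right of the vertical band (43 genes) and 28 of them inside the horizontal band, where the cultivars were level after the cold, while 5 lie at the lower left.

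Descriptions were taken from the study's gene tables, which hold mainly genes its authors had selected as changed in these samples, together with known genes of anther development and starch. Of the 64 genes, 21 had a description there, of which 5 read only expressed protein and 16 named a product. The other 43 had none, and those of them that are named below are given by locus. Since the described genes were selected on these samples, the make-up of the 16 is not independent evidence of which functions fell.

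Enzymes of amino acid and sugar metabolism headed the described genes. A pyridoxal-dependent decarboxylase gene (LOC_Os06g04070), of a vitamin B6-dependent enzyme family that removes the carboxyl group of amino acids, had the highest S.AND CONTROL mean of all 64 genes. In S.AND its mean was 457 RPKM in CONTROL and 114 RPKM in COLD, a 4.02-fold fall, while in ERY it was 166.5 RPKM in CONTROL and 114 RPKM in COLD. The cultivars thus differed 2.75-fold in CONTROL and were level in COLD, where the ratio was 0.996. The ERY ratio of 0.686 was among the 3 nearest the lower limit of the rule.

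OsINV3 (LOC_Os02g01590), an invertase that cleaves sucrose into glucose and fructose, had the same course with a flat line in ERY. Its mean was 231 RPKM in S.AND CONTROL and 79.1 RPKM in S.AND COLD, and 74.1 RPKM in ERY CONTROL and 73.1 RPKM in ERY COLD. S.AND CONTROL was the group that stood apart, 3.13 times ERY CONTROL, and the other 3 means lay close together. The other 3 invertase genes of the study's list did not share this pattern. OsINV1 (LOC_Os09g08072) had 19.4 RPKM in S.AND CONTROL and 11.8 RPKM in S.AND COLD, and 22.6 RPKM in ERY CONTROL and 18.5 RPKM in ERY COLD. OsINV4 (LOC_Os04g33720), the cell wall invertase of rice anthers, had the opposite one, with 76.3 RPKM in CONTROL and 21.4 RPKM in COLD in ERY, whereas S.AND had 11.8 RPKM in CONTROL and 26.1 RPKM in COLD. OsINV2 (LOC_Os04g45290) stayed under 10 RPKM in all 4 groups. Of the 41 starch-related genes measured, OsINV3 was the 1 gene among the 64, where the share over the 16733 genes was 0.382%, and 1 gene is too few to read.

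A sulfate transporter gene (LOC_Os03g06520), of a family that carries sulfate across membranes, fell from 59.1 to 18.5 RPKM in S.AND. In ERY it went from 22.6 to 18.1 RPKM, so both cultivars ended at nearly the same level. A transketolase gene (LOC_Os05g33840), of an enzyme shared by the Calvin cycle and the pentose phosphate pathway, went from 30.2 to 12.1 RPKM in S.AND and from 23.0 to 21.7 RPKM in ERY. It started close to ERY and ended below it, and with a fall of 2.5-fold it was among the 3 genes nearest the limit of the rule.

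The largest described group was that of the photosynthetic light reactions, in which electrons pass from water through photosystem II and photosystem I to ferredoxin. PsbP (LOC_Os07g04840), a protein at the water-splitting site of photosystem II, went from 141 to 52.3 RPKM in S.AND and from 115 to 77.2 RPKM in ERY. Its ERY ratio of 0.672 was the nearest of the 64 genes to the lower limit. Subunit IV A of the photosystem I reaction center (LOC_Os07g25430), on the side where ferredoxin docks, went from 36.0 to 12.5 RPKM in S.AND and from 31.0 to 22.2 RPKM in ERY. PGR5 (LOC_Os08g45190), known in Arabidopsis for cyclic electron flow around photosystem I, went from 16.0 to 4.54 RPKM in S.AND, a 3.53-fold fall, and from 13.5 to 10.5 RPKM in ERY. A 2Fe-2S iron-sulfur cluster binding protein gene (LOC_Os08g01380), of the kind of protein that carries single electrons, went from 158 to 59.9 RPKM in S.AND and from 112 to 79.7 RPKM in ERY. A locus of the photosystem I list with no description (LOC_Os03g56670) went from 25.4 to 8.63 RPKM in S.AND and stayed at 16.2 and 15.8 RPKM in ERY. All but the last of these were thus lower in ERY COLD as well, with 67.2% to 77.8% left, and LOC_Os03g56670 was the 1 gene of the group that was flat there.

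Other genes of the same machinery fell in S.AND as well. The background here is 3.39% of genes falling at least 2.5-fold in S.AND and 2.42% in ERY, among those with a CONTROL mean of 5 RPKM or more in that cultivar. Without the 2 photosystem I loci that the rule had chosen, 3 of the other 6 photosystem I genes fell in S.AND and 0 in ERY, and the 5 of them with all 4 means at 1 RPKM or more had a median log2FC of -1.74 in S.AND against -0.66 in ERY. Without PsbP, 4 of the other 5 photosystem II genes fell in S.AND and 2 in ERY. Of the 9 chlorophyll synthesis genes 3 fell in S.AND and 3 in ERY. None of the 16 antenna genes, whose proteins harvest light, was among the 64, which says little when 0.382% of the 16733 genes were. In the antenna 10 genes fell in S.AND and 7 in ERY, and the chlorophyll A-B binding protein gene LOC_Os01g41710, named after its values were seen, went the other way, with 56.0 RPKM in CONTROL and 157 RPKM in COLD for ERY, and 31.6 and 76.8 RPKM for S.AND. Over these 4 lists without the genes the rule had chosen, the log2FC was lower in S.AND than in ERY in 31 of the 33 genes with all 4 means at 1 RPKM or more, against 50.4% of all genes. Such a lean was not limited to these lists. It was seen in 45 of 53 cell wall genes, 20 of 23 chaperone genes and 127 of 163 transcription factor genes. The median log2FC in S.AND and ERY was -1.46 and -1.19 for the cell wall genes and -1.59 and -1.06 for the chaperone genes. For the transcription factor genes it was 0.98 and 1.33, so at the median these rose in both cultivars, and less in S.AND. The described genes of these groups had mostly been selected as changed in these samples. Among the starch genes the lean was seen in 19 of 38, and among the anther development genes in 22 of 41.

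Among the histone genes, which package DNA, a core histone gene (LOC_Os03g17100) went from 48.4 to 14.9 RPKM in S.AND and from 41.5 to 29.7 RPKM in ERY. A histone H3 gene (LOC_Os06g06460) went from 15.6 to 5.18 RPKM in S.AND and from 18.8 to 13.5 RPKM in ERY. Both started within 1.5-fold of ERY and ended below it. The 2 other described histone genes were lower in S.AND COLD too, but by less than the limit, with a log2FC of -1.11 for LOC_Os08g38300 and -1.13 for LOC_Os09g38020 in S.AND and of -0.59 and -0.48 in ERY. Histone genes have near-identical copies that reads of 50 bp cannot always separate, so the level of any 1 copy is uncertain.

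Of the 7 genes described with an LTPL name, of the LTP family of small proteins that bind lipids, 2 met the rule. LTPL60 (LOC_Os06g12440) went from 46.7 to 18.3 RPKM in S.AND and stayed at 14.4 and 14.2 RPKM in ERY. LTPL149 (LOC_Os01g49640) went from 15.3 to 5.69 RPKM in S.AND and stayed at 8.15 and 8.02 RPKM in ERY. Both were flat in ERY and started above it in S.AND. Of the other 5 LTPL genes, 3 fell in S.AND and 1 in ERY, against the background of 3.39% and 2.42%, but most described genes had been selected as changed in these samples. OsC6 and OsC4, from the anther development genes, are described as lipid transfer proteins without an LTPL name, and neither fell by the limit. Their log2FC was -0.31 and -0.37 in S.AND and -0.36 and 0.41 in ERY.

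OsTDF1 (LOC_Os03g18480), a MYB transcription factor needed for the development of the tapetum, had the largest starting difference of the 64 genes. Its mean was 19.7 RPKM in S.AND CONTROL and 7.45 RPKM in S.AND COLD, and 1.03 RPKM in ERY CONTROL and 1.41 RPKM in ERY COLD. S.AND CONTROL was thus 19.0 times ERY CONTROL, and S.AND COLD was still 5.29 times ERY COLD. With 1.03 RPKM in ERY CONTROL it was also the gene nearest the floor set on the ERY means, where a steady ratio rests on few reads.

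Of the tapetum list, more genes stood higher in S.AND than lower before the cold, though not all differed. Of 10 tapetum genes, 6 were at least 1.5 times higher in S.AND CONTROL than in ERY CONTROL and 0 were as much lower, with a median ratio of 3.42, and OsTDF1 was the 1 gene that met the rule. Over the 16733 genes the shares were 11.7% higher and 7.64% lower. OsTDF1 is counted among the 6, although the rule that chose it favours a high start in S.AND. The regulators TDR, TIP2 and UDT1 lay within 1.5-fold, with ratios of 1.35, 1.11 and 1.08, and so did the gene OsC6, with 0.947. PTC1 (LOC_Os09g27620), a PHD finger regulator of tapetal cell death, had 37.0 RPKM in S.AND CONTROL and 16.4 RPKM in S.AND COLD, and 1.42 RPKM in ERY CONTROL and 2.97 RPKM in ERY COLD. CYP703A3 (LOC_Os08g03682), a fatty acid hydroxylase of pollen wall synthesis, had 1261 and 717 RPKM in S.AND and 115 and 123 RPKM in ERY. Neither met the rule, since both fell by less than 2.5-fold in S.AND, and PTC1 also rose in ERY beyond the limit, to 209% of its CONTROL mean. Leaving out OsC6, a lipid transfer protein gene that holds most of the level of the list, the tapetum genes summed to 7202 RPKM in S.AND CONTROL, 4365 RPKM in S.AND COLD, 1665 RPKM in ERY CONTROL and 1472 RPKM in ERY COLD. With OsC6 the sums were closer between the cultivars, at 31773.7 and 24193.5 RPKM in S.AND and 27617.3 and 21757.9 RPKM in ERY. Of the 45 anther development genes, 19 were at least 1.5 times higher in S.AND CONTROL and 6 as much lower, where the shares over the 16733 genes were 11.7% and 7.64%. These shares are not a like-for-like measure, since the 45 genes were taken with no floor on level. Some of the 19, such as the polyketide synthase gene OsPKS2 with 0.646 RPKM in ERY CONTROL, could not be among the 16733. The 19 also include OsTDF1, which the rule chose. Of the 6 meiosis genes 0 were higher and 2 lower, too few genes to set against these shares. How much these differences in CONTROL had to do with the starting levels of the 64 genes was not tested.

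Of the 45 anther development genes, 2 fell at least 2.5-fold in S.AND and 0 in ERY, counts close to the background of 3.39% and 2.42% of genes. Beside OsTDF1 this was OsMYB103 (LOC_Os04g39470), a MYB factor of tapetum and pollen wall development, named here after its values were seen. It went from 31.2 to 11.2 RPKM in S.AND but had only 0.185 and 0.158 RPKM in ERY, under the floor, and so was left out by the rule.

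**Figure D4:**
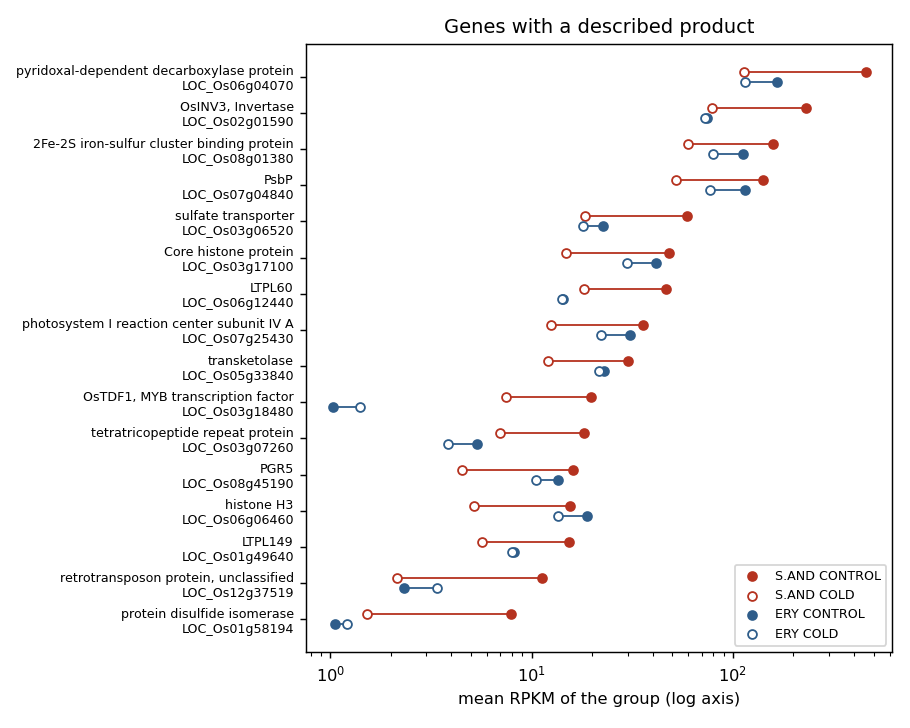
The 4 group means of the 16 genes with a named product are plotted in RPKM on a log axis, with S.AND in red, ERY in blue, filled circles for CONTROL and open circles for COLD, and a line joining the 2 means of a cultivar. For the decarboxylase, OsINV3 and the sulfate transporter the open red circle lies close to the open blue circle of ERY COLD, whereas for the photosystem and histone genes the filled circles are close and the open red circle lies left of both ERY circles.

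The remaining described genes had low levels in ERY. A protein disulfide isomerase gene (LOC_Os01g58194), of an enzyme that forms disulfide bonds in new proteins, fell 5.19-fold, from 7.89 to 1.52 RPKM in S.AND, while ERY had 1.06 and 1.21 RPKM. A gene described as a retrotransposon protein (LOC_Os12g37519) fell 5.25-fold, from 11.3 to 2.16 RPKM in S.AND, and went from 2.33 to 3.40 RPKM in ERY, close to the upper limit of the rule. A tetratricopeptide repeat gene (LOC_Os03g07260), whose repeats bind other proteins, went from 18.2 to 6.99 RPKM in S.AND and from 5.39 to 3.85 RPKM in ERY. In COLD the isomerase gene was within 1.5-fold of ERY, the retrotransposon gene was below it and the tetratricopeptide repeat gene above it.

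The 5 genes described only as expressed proteins all started at least 1.5 times above ERY. LOC_Os07g10420 was the most abundant of them, with 53.9 RPKM in S.AND CONTROL, 17.4 RPKM in S.AND COLD, 15.3 RPKM in ERY CONTROL and 11.97 RPKM in ERY COLD. The other 4, LOC_Os08g01400, LOC_Os10g25150, LOC_Os01g40310 and LOC_Os12g26220, had between 11.3 and 19.7 RPKM in S.AND CONTROL.

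Of the 43 loci without a description, S.AND CONTROL ranged from 5.07 to 322 RPKM with a median of 15.2 RPKM, against a median of 19.7 RPKM for the described genes. LOC_Os07g39640 was the highest, with 322 RPKM in S.AND CONTROL, 120 RPKM in S.AND COLD, 25.2 RPKM in ERY CONTROL and 20.2 RPKM in ERY COLD, so it stayed far above ERY after the cold. LOC_Os12g37415 had 192 and 73.2 RPKM in S.AND and 133 and 117 RPKM in ERY, and thus crossed from level to below. LOC_Os05g02070, with 161 and 44.1 RPKM in S.AND, and LOC_Os03g17870, with 161 and 57.3 RPKM, were higher in ERY COLD than in ERY CONTROL, by 1.23 and 1.32 times. LOC_Os10g22050 had 105 and 33.3 RPKM in S.AND and 21.7 and 24.3 RPKM in ERY.

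The largest fall of all 64 genes was that of LOC_Os03g55960, 6.01-fold, from 60.7 to 10.1 RPKM in S.AND, while ERY stayed at 7.59 and 8.75 RPKM. It started 7.99 times above ERY and ended at 1.15 times. Next came LOC_Os10g31320 with 5.39-fold, from 13.3 to 2.46 RPKM in S.AND, while ERY had 35.1 and 34.9 RPKM. This locus was the reverse case, as S.AND was already below ERY in CONTROL and reached 0.0704 of the ERY level in COLD. LOC_Os07g39320 fell 4.98-fold and LOC_Os08g34790 fell 4.28-fold, and both ended level with ERY. LOC_Os02g49860 fell 3.44-fold and LOC_Os05g25900 fell 3.34-fold.

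Besides LOC_Os10g31320, 4 loci started at least 1.5-fold below ERY, namely LOC_Os03g28250, LOC_Os01g50910, LOC_Os01g07530 and LOC_Os06g06510. The lowest start was that of LOC_Os03g28250, with 5.96 RPKM in S.AND CONTROL, 1.74 RPKM in S.AND COLD, 27.2 RPKM in ERY CONTROL and 36.4 RPKM in ERY COLD. As the rule entails for such a start, S.AND lay further below ERY after the cold in all 5 genes.

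The 64 genes lay on all 12 chromosomes by their locus names, from 1 gene on chromosome 9 (0.111% of its genes that could meet the rule) to 10 on chromosome 3 (0.426%), and the highest share was that of chromosome 8, with 7 genes (0.621%). None were next to each other in the order of loci. Within 5 loci of each other lay the histone H3 gene LOC_Os06g06460 and LOC_Os06g06510, with 3 loci between them, and the 2Fe-2S protein gene LOC_Os08g01380 and LOC_Os08g01400, with 1 locus between them. The members of both pairs started differently against ERY, with S.AND to ERY ratios in CONTROL of 0.832 and 0.648 in the first pair and of 1.41 and 5.46 in the second.

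Several genes lay close to the limits on either side. At the limit of a 2.5-fold fall, LOC_Os09g26900 and LOC_Os12g24330 were just inside with 2.501-fold and 2.504-fold, and LOC_Os02g50730, LOC_Os04g26920 and LOC_Os01g45700 just outside with 2.49-fold each. At the lower ERY limit, LOC_Os02g43540 was inside with a ratio of 0.683, and LOC_Os01g19820, LOC_Os02g38790 and LOC_Os04g32700 were outside with 0.667, 0.665 and 0.662. At the upper ERY limit, LOC_Os02g43330 and LOC_Os11g41650 were inside with 1.495 and 1.40, and LOC_Os02g37480, LOC_Os05g51570 and LOC_Os02g51930 were outside with 1.57, 1.60 and 1.64. At the floor of 5 RPKM, LOC_Os02g43330 was inside with 5.07 RPKM, and LOC_Os05g02450 was outside with 4.67 RPKM. At the floor of 1 RPKM, LOC_Os08g07050 was inside with 1.11 RPKM in ERY COLD, and LOC_Os06g24490 was outside with 0.992 RPKM in ERY CONTROL.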

How the data were processed

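Poly(A) RNA of 12 anther samples was read as single reads of 50 bp. With CLC Genomics Workbench 4.7.1 the authors matched them to MSU gene models, release 7.0, and computed RPKM. The deposited values are RPKM means of the 3 samples of a group after scaling by totals, so that each of the 4 columns sums to about 1000000 and a value is a share of the column. The table also holds the authors' fold changes and corrected p-values (FDR) from Baggerley's test within each cultivar, which were not used. It has 0 columns of values per sample, so depth, replicate spread and tests were out of reach and counts of genes are descriptions.

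Ratios were taken between the means with no pseudocount. The counterparts of the rule exchanged the cultivar, the direction or both. The genes, gene lists and limits were chosen with earlier results of these data known. Lists were loci of antenna, photosystems, chlorophyll synthesis, stamen, pistil, lemma or palea, meiosis and tapetum, the study's anther development and starch genes, and groups formed by words in descriptions. Fell and rose in a list mean at least 2.5-fold with the higher mean at 5 RPKM or more, and medians use genes with all 4 means at 1 RPKM or more. None of the 4 lemma or palea genes fell. The word groups cell wall, hormones, kinases, cytochrome P450 and defence held 0 of the 64 genes, the wider groups of lipid-related genes and of proteases and their inhibitors held LTPL60 and LTPL149, and the transporter, transcription factor, chaperone and transposon groups held 1 each, named above. With a share of 0.382% over the 16733 genes, counts of 0 or 1 say little about such groups.

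Genes were named if among the 10 highest S.AND CONTROL means, the 10 largest falls at 10 RPKM or more, the 6 highest of a group, close in locus order, or among the 3 on each side of a limit. At the floors of 5 RPKM and 1 RPKM only some of the 3 on each side are given. The 1535 described genes come from the study's gene tables; 0 locus identifiers matched the reference table used here, so no coordinates or sequences are given. The code was tested on simulated data. Python 3.11.15, NumPy 2.4.6, pandas 2.3.3 and matplotlib 3.10.9 were used.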

Additional observations from a re-analysis of the deposited data

How the results depend on the processing

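The number of genes depended strongly on the limits, which is built into a rule on ratios. The 64 genes became 210 at a 2-fold fall, 8 at 4-fold, 27 with ERY COLD held to 80% to 125% of CONTROL, 154 with 0.5 to 2, 212 with no floor on S.AND CONTROL and 39 with a floor of 5 RPKM on the ERY means. In the same order the genes that fell in ERY alone, 23, became 69, 4, 12, 66, 81 and 7, those that rose in ERY alone, 87, became 226, 19, 36, 213 and 251 (with the last setting within 1.5 times), and those that rose in S.AND alone, 9, became 62, 1, 0, 31, 67 and 5. A floor of 10 RPKM on the moving cultivar gave 9, 53 and 4 for these 3 rules. Under each of these settings more genes fell in S.AND alone than in ERY alone. The median S.AND to ERY ratio in CONTROL, 2.63, became 1.57 at a 2-fold fall, 1.51 with the window of 0.5 to 2, 1.14 with no floor on S.AND and 1.70 with the floor of 5 RPKM on ERY, and the ratio in COLD, 0.894, became 0.386 with no floor on S.AND. The 5 light reaction genes became 0 at 4-fold, 11 with the window of 0.5 to 2 and 1 with the narrower one. With ratios of RPKM + 1 the rule took 46 genes, of which 42 were among the 64, and after centring on the median gene 70, of which 63 were. No paired analysis was possible because the table holds 1 mean per group and no replicates, and for the same reason no replicate could be left out. Low levels are a further limit, as 17 of the 64 genes had under 10 RPKM even in S.AND CONTROL.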

Other observations

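Beside the 64 genes, 16 others fell at least 2.5-fold in S.AND and rose more than 1.5-fold in ERY, and all 16 started at least 1.5 times above ERY in S.AND, from 1.63 to 22.8 times. LOC_Os01g03390 went from 202 to 52.1 RPKM in S.AND and from 26.3 to 119 RPKM in ERY, so the order of the cultivars turned over. LOC_Os01g24710 went from 429 to 164 RPKM in S.AND and from 29.1 to 89.6 RPKM in ERY, and the cultivars came nearer to each other. A nodulin MtN3 family gene (LOC_Os12g29220), of a family that includes sugar exporters, went from 24.2 to 4.33 RPKM in S.AND and from 1.53 to 5.10 RPKM in ERY, and both cultivars ended at like levels. The largest fall among them was that of LOC_Os02g51930, 11.7-fold, from 27.0 to 2.30 RPKM in S.AND, while ERY had 1.19 and 1.94 RPKM. In COLD, 8 of the 16 were within 1.5-fold of ERY, 5 below it and 3 above it. These loci were picked after their values were seen, and the difference between the cultivars was not tested.

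The photosystem II list holds 2 loci with the same description, photosystem II 10 kDa polypeptide, and quite different values. LOC_Os07g05365 had 19.4 RPKM in S.AND CONTROL and 2.94 RPKM in S.AND COLD, and 0.753 RPKM in ERY CONTROL and 1.55 RPKM in ERY COLD, and was outside the rule both by the floor on ERY and by its rise there. LOC_Os08g10020 had 97.1 and 47.6 RPKM in S.AND and 108 and 77.9 RPKM in ERY. Whether the 2 loci share reads was not tested.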
